A study of Caenorhabditis elegans with 59 samples.

Results

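The proteasome subunit genes described here are the Caenorhabditis elegans genes whose WormBase symbol starts with pas-, pbs-, rpn- or rpt- and which are listed in all 3 deposited expression tables. The rule found 33 genes among the 9737 that the tables share. Of these, 14 belong to the 20S core, with 7 alpha-ring pas genes and 7 beta-ring pbs genes, and 19 belong to the 19S cap, with 13 non-ATPase rpn genes and 6 ATPase rpt genes. The genes are spread over chromosomes I (10 genes), II (7), III (8), IV (3) and V (5) of WBcel235, and all 33 passed the filter on low values in each table.

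The study used auxin to degrade HSF-1, the heat shock transcription factor, in the somatic cells of young adult worms, and measured polyA RNA of whole animals by RNA-seq. Strain JTL611 carries endogenous hsf-1 fused to an auxin-inducible degron and GFP, together with TIR1, the plant F-box protein that recognises auxin, under the somatic eft-3 promoter. Its control, CA1200, carries TIR1 alone, so both strains share the transgene. Each was kept on 1 mM auxin or on the ethanol mock for 8 and 24 h at 20 °C. JTL667 has the degron-tagged hsf-1 and TIR1 in the glp-1(e2141) background, which makes no germline at 25 °C, and JTL670 has them in the fem-3(q20) background, which makes sperm but no oocytes at that temperature. Both sterile strains were kept at 25 °C on auxin or mock for 8, 24 and 48 h, with about 120 worms picked per plate. They have no TIR1-only control of their own background among the libraries analysed here, so auxin itself and loss of HSF-1 cannot be told apart in them. Titles of the fertile samples carry NHS, read here as no heat shock. Titles of the sterile samples carry D1, read here as day 1 of adulthood. Every group had 3 libraries, except that glp-1(e2141) at 48 h on auxin had 2, replicates 1 and 3. Nothing in the labels says that the replicates came from separate cultures, so p-values measure the spread between these libraries.

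The proteasome is the main protease for ubiquitin-tagged proteins in the cytosol and nucleus. Its barrel-shaped core is built of alpha rings, which gate the entry, around beta rings, which hold the cutting sites on some of their subunits. The cap binds ubiquitin chains, removes them, unfolds the substrate with a ring of ATPases and feeds it into the core. In worms the subunit genes are transcribed together under SKN-1A, a membrane-bound form of SKN-1. It is processed by the protease DDI-1 and the glycanase PNG-1 and acts when proteasome capacity is short.

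Values are CPM as deposited, the reads of a gene over a library size that was adjusted library by library, so that the CPM of all listed genes summed to 798216 to 1216510 in a library rather than to 1 fixed total. The libraries held 13100691 to 22230585 reads on listed genes at 8 h, 13398410 to 23867943 at 24 h and 9131588 to 19964797 in the sterile strains. The shallowest, glp-1(e2141) mock replicate 1 at 24 h, stood apart in several subunit genes and had 4340 listed genes without a read. In the sterile strains the agent named in the sample title and the agent named in a second label field disagreed in 18 of 35 libraries, among them every fem-3(q20) replicate 2 and 3 and every glp-1(e2141) replicate 3. The tables' columns carry the titles, so the titles were used. hsf-1 mRNA was not called changed by auxin in any strain. This is no check of the labels, because auxin removes the protein. Sperm marker sums went with the labels of the sterile strains: 10 sperm genes summed to 8.08 to 26.2 CPM in glp-1(e2141) against 2759 to 4705 CPM in fem-3(q20). In the fertile strains 8 oogenic genes summed to 4870 to 12443 CPM in JTL611 against 7217 to 14593 CPM in CA1200. These ranges overlap and do not check the labels of JTL611 and CA1200.

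The particle holds its subunits in fixed numbers, and their mRNAs covered a wide range once divided by exon length. In mock-treated JTL611 at 24 h the highest was pas-5, an alpha-ring gene, at 529.6 ± 139 CPM per kb (SD, n = 3), ahead of pas-2 at 485.0 ± 108 and pas-3 at 443.6 ± 33.6 CPM per kb. These 3 levels lay within each other's spread. In CA1200 the same 3 alpha genes led, with pas-5 at 500.5 ± 74.3 CPM per kb. The lowest in both fertile strains was rpn-6.2, a second copy of the gene for the lid scaffold RPN-6, at 17.8 ± 1.1 CPM per kb in JTL611 and 17.9 ± 0.4 CPM per kb in CA1200. Above it came rpn-13, a ubiquitin receptor of the cap, at 138.7 ± 26.8 CPM per kb in JTL611 and 141.3 ± 25.4 CPM per kb in CA1200, and rpt-6, a base ATPase, at 141.5 ± 23.7 and 141.3 ± 17.8 CPM per kb in these strains, which overlapped rpn-13. The lowest gene was thus set off from the rest by several times the spread.

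The order was not the same in the sterile strains, whose table was normalised separately, so that only ranks within a strain are given side by side with the fertile ones. Gene pas-5 led in both, with 173.1 ± 11.3 CPM per kb in glp-1(e2141) and 292.1 ± 34.0 CPM per kb in fem-3(q20) under mock at 8 h. By the mean over all groups of a strain, rpt-6 stood at rank 5 in glp-1(e2141) and at rank 2 in fem-3(q20), but at rank 31 in JTL611 and in CA1200. Gene rpn-6.2 was lowest in glp-1(e2141) at 1.2 CPM per kb, whereas in fem-3(q20) it stood at rank 25 with 85.8 CPM per kb and rpn-6.1 was lowest at 25.4 CPM per kb.

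The first question was what loss of somatic HSF-1 does to the subunit genes in fertile adults. At 8 h none of the 33 was called different in JTL611 on auxin against CA1200 on auxin, where a call means an adjusted p under 0.05 by limma with Benjamini-Hochberg adjustment over all tested genes and a mean of at least 2 CPM. The share of all 10739 tested genes called was 0%. No member reached an unadjusted p under 0.05, and limma with voom precision weights also called 0. The median log2 fold change was 0.00, from -0.29 for rpn-1, a scaffold of the cap base, to 0.16 for pbs-4, a beta-ring gene. On auxin at 8 h, rpn-1 had 433, 650 and 597 CPM in JTL611 against 655, 697 and 671 CPM in CA1200. All 3 JTL611 libraries were lower, and replicate 1 was lowest. JTL611 on auxin against its own mock also had 0 of 33 calls by limma or voom weights, 0 at an unadjusted p under 0.05, a median of -0.02 and a background of 0%.

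At 24 h the subunit genes leaned to higher values in JTL611 on auxin, by a small amount that no test called. Against its own mock the mean was higher for 33 of 33 genes, beside 47.9% of all genes, and the median log2 fold change was 0.21, beside -0.01 over all genes. It was 0.22 for the core and 0.21 for the cap, and 0.28 for the 6 ATPase genes. For 12 of 33, 4 core and 8 cap, every auxin library was above every mock library, beside 3.08% of all genes. Before adjustment 6 of 33 had p under 0.05, beside 472 of 10245 over all genes. Adjusted calls by limma were 0 of 33 beside a background of 0% of 10245 genes, and voom weights called 0. The genes are not independent: the 33 CPM summed to 13455, 12676 and 11901 in JTL611 on auxin against 9789, 11507 and 11427 in mock, and mock replicate 1 had the lowest sum.

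The largest of these values was that of rpn-7, a lid subunit. It had 642, 570 and 471 CPM in JTL611 on auxin against 356, 458 and 446 CPM in mock. The groups did not overlap, although auxin replicate 3 lay close to the upper mock libraries, and the log2 fold change of 0.41 (SE 0.15) had an adjusted p of 1 by limma (n = 3 each). The alpha-ring gene pas-1 had 346, 299 and 267 CPM on auxin against 202, 247 and 262 CPM in mock, and its groups also did not overlap. pbs-6, a beta-ring gene, gave 314, 284 and 269 CPM on auxin against 191, 237 and 263 CPM in mock, a log2 fold change of 0.33 beside 0.36 for pas-1. At the other end pas-2 had 493, 371 and 365 CPM on auxin against 512, 347 and 366 CPM in mock. Replicate 1 was high under both agents and the groups overlapped fully.

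Set against CA1200 on auxin at 24 h, the lean was smaller. JTL611 was higher in the mean for 32 of 33 genes, beside 51.9% of all genes, with a median of 0.16, but every library was higher for only 2 of 33, beside 2.95% of all genes. The range ran from -0.06 for rpn-6.2 to 0.39 for pbs-4. pbs-4 had 493, 328 and 299 CPM in JTL611 against 347, 293 and 212 CPM in CA1200, with JTL611 replicate 1 far above the other 2. rpn-7 had 642, 570 and 471 CPM in JTL611 against 422, 481 and 446 CPM in CA1200, and the highest CA1200 library was above the lowest JTL611 library. Calls were 0 of 33 by limma and by voom weights, with 0 at an unadjusted p under 0.05 and a background of 0%. With the replicate number as a block, calls were 0 of 33 beside 8 over all genes. The oogenic marker sum was 4870 to 12443 CPM in JTL611 on auxin against 6581 to 11963 CPM in its mock, and its part in these values was not tested. In whole animals, fewer cells of a type and less RNA per cell cannot be told apart, here and in every comparison that follows.

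**Figure D1:**
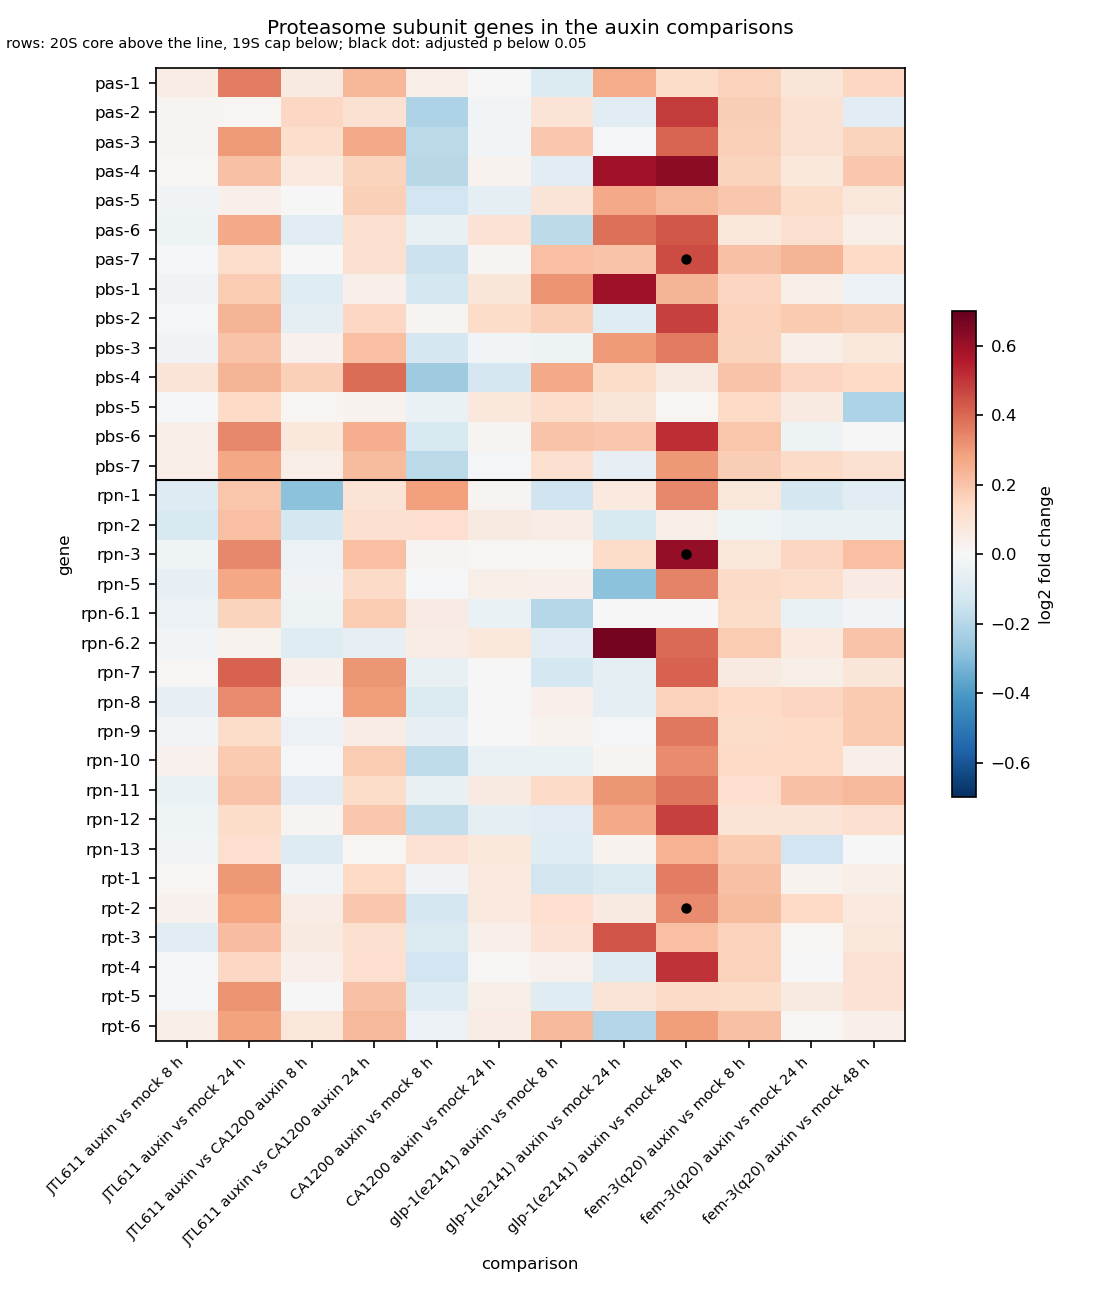
Heat map of the log2 fold change of each of the 33 subunit genes (vertical axis, core and cap) in the 12 auxin comparisons (horizontal axis), with black dots for calls by limma at an adjusted p under 0.05. The 3 dots stand at rpn-3, pas-7 and rpt-2 in glp-1(e2141) at 48 h, where the median was 0.35, and the JTL611 columns at 24 h have medians of 0.21 against mock and 0.16 against CA1200.

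Auxin without the degron and the strain without auxin served as background. In CA1200 on auxin against mock the median was -0.08 at 8 h, with 8 of 33 higher in the mean, and 0.02 at 24 h, with 22 higher. By limma and by voom weights 0 of 33 were called at either hour and 0 had an unadjusted p under 0.05, beside 0.00931% of all genes called at 8 h and 0.00976% at 24 h. JTL611 mock against CA1200 mock had medians of -0.06 at 8 h and -0.04 at 24 h, with 0 calls by both and backgrounds of 0% and 0%. Before adjustment 1 of 33 at 8 h and 0 at 24 h had p under 0.05, beside 145 of 10739 and 78 of 10245 over all genes.

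In animals without a germline, glp-1(e2141), auxin made no called difference at the earlier hours. At 8 h limma and voom weights called 0 of 33 beside 0.428% of all genes. An unadjusted p under 0.05 was found for 2 of 33, beside 1063 of 14269 over all genes. The median of the 33 was 0.03 with 20 of 33 higher. The largest was pbs-1 at 0.32, a beta-ring gene, and the lowest was rpn-6.1 at -0.20. At 24 h both again called 0 of 33, beside 0.659% of all genes, and 8 of 33 were under 0.05 before adjustment, beside 2276 of 14269 over all genes. The median of the 33 was 0.07, the same as the 0.07 over all genes.

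The largest 24 h value was that of rpn-6.2, at 0.67 log2 but low in reads, with 2.40, 1.89 and 1.99 CPM on auxin against 1.22, 1.32 and 1.24 CPM in mock. Its groups did not overlap, and its adjusted p was 0.38 by limma. Next came pas-4 and pbs-1, at 0.59 each. pas-4, an alpha-ring gene, had 32.4, 26.0 and 27.8 CPM on auxin against 8.80, 24.8 and 31.2 CPM in mock. pbs-1 had 49.0, 33.3 and 47.0 CPM on auxin against 12.6, 37.9 and 46.6 CPM in mock. In both, mock replicate 1 was far below every other library, and the auxin libraries overlapped the other 2 mock libraries. The lid gene rpn-5 went the other way, with 78.1, 85.3 and 73.1 CPM on auxin against 136, 85.1 and 77.1 CPM in mock, where the same library was high. Without it the median of the 33 was 0.02 and the count of calls was still 0, but it was 1 without mock replicate 2 and 3 without mock replicate 3. rpn-11, the deubiquitinase of the lid, had 55.1, 48.4 and 50.9 CPM on auxin against 38.4, 41.6 and 44.7 CPM in mock. All 3 auxin libraries were above all mock libraries, at a log2 fold change of 0.31 (SE 0.10) and an adjusted p of 0.16 by limma.

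At 48 h of auxin the subunit genes of glp-1(e2141) stood higher as a set. The mean was higher for 33 of 33, beside 53.9% of all genes, with a median log2 fold change of 0.35, or 1.27-fold, beside 0.00 over all genes. Medians were 0.38 in the core (0.44 in the alpha ring and 0.30 in the beta ring) and 0.34 in the cap (0.35 for non-ATPase and 0.31 for ATPase genes). Every auxin library was above every mock library for 22 of 33, 8 core and 14 cap, beside 14.4% of all genes with 2 libraries against 3. Limma called 3 of 33 higher, beside 2.92% of all genes called higher, and 0 lower. An unadjusted p under 0.05 was found for 18 of 33, beside 2379 of 14269 over all genes in either direction. Limma with voom weights called 4 higher, pas-7, rpn-3, pbs-6 and rpt-4.

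The called genes were rpn-3, pas-7 and rpt-2. rpn-3 (WBGene00004460, WBcel235 chromosome III, 8447353 to 8449346, plus strand) encodes a lid subunit. It had 155 and 145 CPM on auxin against 106, 102 and 86.1 CPM in mock. The groups were well apart, with a log2 fold change of 0.62 (SE 0.14) and an adjusted p of 0.0066 by limma with Benjamini-Hochberg adjustment.

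pas-7 (WBGene00003928, chromosome II, 10098782 to 10099854, minus strand), an alpha-ring gene, had 98.6 and 86.6 CPM on auxin against 65.5, 61.5 and 75.6 CPM in mock. Its groups did not overlap, and it rose by 0.46 on the log2 scale (SE 0.10, adjusted p = 0.0073 by limma). rpt-2 (WBGene00004502, chromosome V, 6016059 to 6017669, minus strand), an ATPase whose tail takes part in opening the core gate, had 118 and 111 CPM on auxin against 95.9, 94.8 and 82.5 CPM in mock. It was the smallest of the 3 at 0.33 (SE 0.10) and lay near the threshold, with an adjusted p of 0.047 by limma. It was not called by voom weights, with a pseudocount of 1, without the filter on low values or under median centring, where the 2 genes called were rpn-3 and pas-7.

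Other genes had values as large but more spread across the fit. pas-4 had 39.4 and 38.6 CPM on auxin against 25.1, 26.1 and 24.4 CPM in mock, tight within these groups, but its SE of 0.28, taken over all sterile groups, gave an adjusted p of 0.24 by limma for a log2 fold change of 0.63. pbs-6 had 60.8 and 48.5 CPM on auxin against 37.5, 38.2 and 37.9 CPM in mock, and missed the threshold with 0.52 and an adjusted p of 0.058. Some members were level. rpn-6.1, a lid scaffold gene, had 38.8 and 37.1 CPM on auxin against 38.3, 32.2 and 44.2 CPM in mock, a difference of 0.00 with a 95% interval of -0.29 to 0.29. rpn-2, the other scaffold of the cap base, had 135 and 134 CPM on auxin against 134, 133 and 126 CPM in mock. pbs-5, the beta subunit with the chymotrypsin-like site, had 60.6 and 58.1 CPM on auxin against 57.0, 60.1 and 59.4 CPM in mock. For rpn-6.1 both auxin libraries fell within the mock range, and for pbs-5 the groups overlapped.

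By ring, the other alpha genes of glp-1(e2141) at 48 h had log2 fold changes of 0.13 for pas-1, 0.49 for pas-2, 0.41 for pas-3, 0.23 for pas-5 and 0.44 for pas-6. pas-2 had 49.6 and 45.7 CPM on auxin against 31.5, 31.1 and 39.8 CPM in mock, without overlap, and pas-3 had 146 and 152 CPM against 101, 95.7 and 147 CPM, where mock replicate 3 lay between the auxin libraries. Of the beta genes, pbs-2, whose product has the trypsin-like site, had 36.8 and 47.0 CPM on auxin against 34.1, 28.4 and 27.3 CPM in mock, 0.48 log2 with an adjusted p of 0.15 by limma, and pbs-4 was near level at 0.06.

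The cap genes just outside the threshold were rpn-11 (0.38, adjusted p = 0.057 by limma), rpt-4 (0.50, 0.065) and rpn-7 (0.41, 0.088). rpt-4, a base ATPase gene, had 131 and 103 CPM on auxin against 72.2, 81.1 and 92.7 CPM in mock, with auxin replicate 1 well above the other. rpt-6 had 131 and 128 CPM against 97.6, 105 and 116 CPM and rpt-1 96.2 and 95.2 CPM against 71.8, 74.5 and 77.3 CPM, both without overlap and with close replicates. Among lid genes rpn-12 had 49.7 and 52.8 CPM on auxin against 34.0, 42.4 and 34.5 CPM in mock and rpn-9 had 83.6 and 82.6 CPM against 69.9, 68.3 and 55.6 CPM. Neither gene was called, at 0.48 for rpn-12 and 0.37 for rpn-9.

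**Figure D2:**
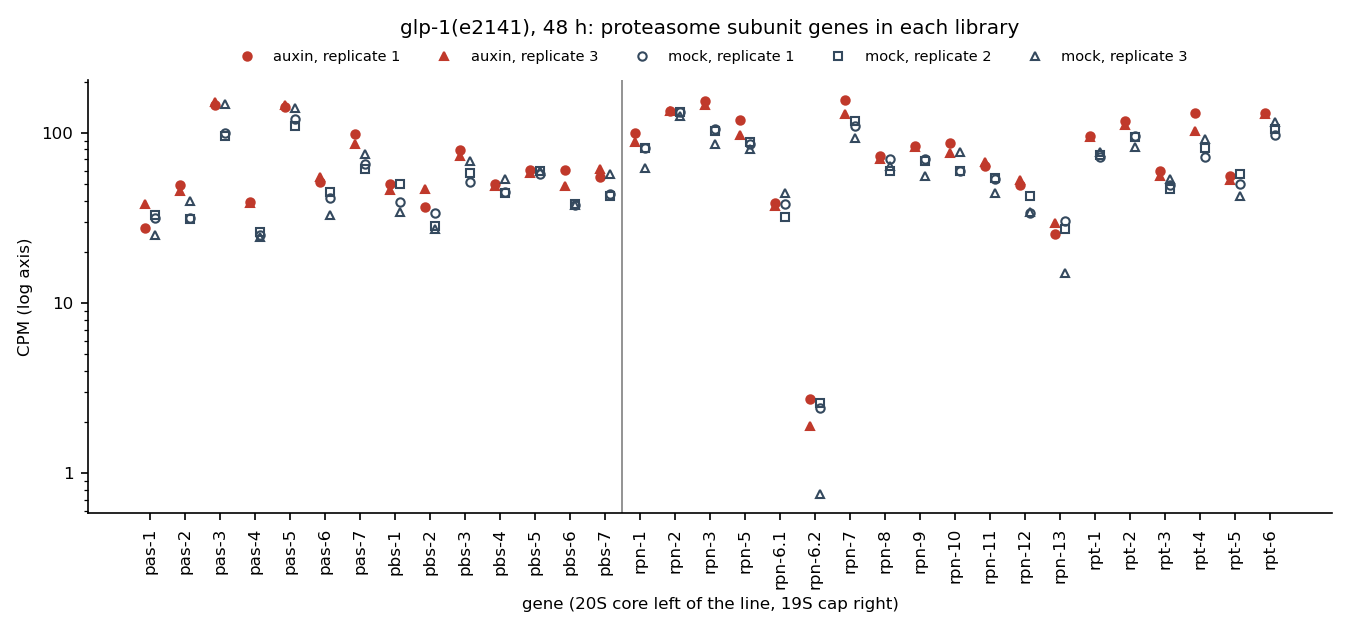
CPM of each subunit gene (log axis) in the single libraries of glp-1(e2141) at 48 h, with auxin and mock libraries as separate symbols. rpn-3 has auxin points at 155 and 145 CPM above mock points of at most 106 CPM, whereas the auxin points of pbs-5, 60.6 and 58.1 CPM, overlap its mock points of 57.0 to 60.1 CPM.

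The count of calls rested on few libraries. It was 0 without auxin replicate 1 and 2 without auxin replicate 3, whose second label field names ethanol, 0 when only the 5 libraries were fitted, and 0 under the second label field, which also brings the median to 0.04. With only the libraries whose labels agree the median was 0.31 and the count was 0. Over all genes there were 694 calls, 21 under the second label field and 69 with agreeing labels. The deposited CPM of all listed genes summed to 798216 to 813408 on auxin against 850943 to 901074 in mock. The summed CPM of the 33 genes was 2631 and 2504 on auxin against 2038, 2054 and 2072 in mock. Marker sums moved too. 4 neuron genes summed to 395 to 428 CPM on auxin against 314 to 332 CPM in mock, intestine genes to 59828 to 63805 against 64816 to 94575 CPM, and muscle genes to 1505 to 1569 against 1693 to 2374 CPM. The part of these sums in the subunit values was not tested.

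In fem-3(q20) auxin brought no call at any hour, by limma or by voom weights. At 8 h 0 of 33 were called beside 0.224% of all genes, with a median of 0.16 beside 0.05 over all genes and 32 of 33 higher in the mean. At 24 h 0 were called beside 0.273%, with a median of 0.08, and at 48 h 0 beside 2.23%, also with a median of 0.08. Over all genes the median was 0.02 at both of these hours. In 12 of the 18 fem-3(q20) libraries the label fields disagree, and under the second field the medians at 8, 24 and 48 h were -0.01, -0.0050 and -0.04, with 0 calls. Unadjusted p values under 0.05 numbered 2 of 33 at 8 h, 1 at 24 h and 1 at 48 h. Over all 14269 genes they numbered 575, 938 and 1568. At 48 h every auxin library was higher for 13 of 33 genes, beside 17.1% of all genes. rpn-11 was the highest at 0.23, with 92.0, 89.3 and 97.0 CPM on auxin against 79.0, 78.7 and 80.0 CPM in mock. pbs-5 was the lowest at -0.22, with 72.1, 63.2 and 71.0 CPM on auxin against 77.5, 81.4 and 80.6 CPM in mock. In both the 3 auxin libraries lay on 1 side of all mock libraries.

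The genes called in glp-1(e2141) were not called here. In fem-3(q20) at 48 h rpn-3 had 271, 298 and 259 CPM on auxin against 221, 251 and 243 CPM in mock. pas-7 had 183, 181 and 187 CPM against 170, 156 and 177 CPM, and rpt-2 had 240, 250 and 253 CPM against 226, 246 and 236 CPM. For rpn-3 and pas-7 all auxin libraries were above all mock libraries, with differences of 0.21 (adjusted p = 0.61) and 0.14 (adjusted p = 0.72) by limma, whereas the rpt-2 groups overlapped.

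The difference between the auxin effects of the 2 strains was itself tested, as an interaction in limma. At 48 h it was above 0 for 30 of 33 genes, with a median of 0.26, beside 0.02 over all genes. Calls were 0 of 33, beside 0.399% of all genes. Of the 33, 4 had an unadjusted p under 0.05, beside 1260 of 14269 over all genes, and voom weights called 0. For rpn-3 it was 0.41 (95% interval 0.03 to 0.79, adjusted p = 0.51), for pas-7 0.32 (0.03 to 0.60, adjusted p = 0.48) and for rpt-2 0.26 (-0.01 to 0.53, adjusted p = 0.60). Calls were also 0 at 8 h, beside 0% of all genes, and 0 at 24 h, beside 0.035%. Before adjustment 0 of 33 at 8 h and 2 at 24 h had p under 0.05, beside 518 and 1245 of 14269 over all genes. Voom weights called 0 at both hours. Hence the strains were not shown to differ in their response, and the intervals do not show that they respond alike.

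The same test between hours, added after the data had been seen, gave 0 calls among the 33. Of all 14269 tested genes it called 258 for 48 h minus 8 h and 189 for 48 h minus 24 h in glp-1(e2141). In fem-3(q20) these counts were 76 and 24. For the 33 genes in glp-1(e2141) the auxin effect at 48 h minus that at 8 h had a median of 0.31, beside 0.00 over all genes. It was above 0 for 29 of 33 genes. An unadjusted p under 0.05 was found for 6 of 33, beside 1837 of 14269 over all genes. These 6 were led by rpn-3 with 0.60 (95% interval 0.22 to 0.98, adjusted p = 0.097 by limma). In fem-3(q20) the median of the same difference was -0.07, beside -0.02 over all genes.

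**Figure D3:**
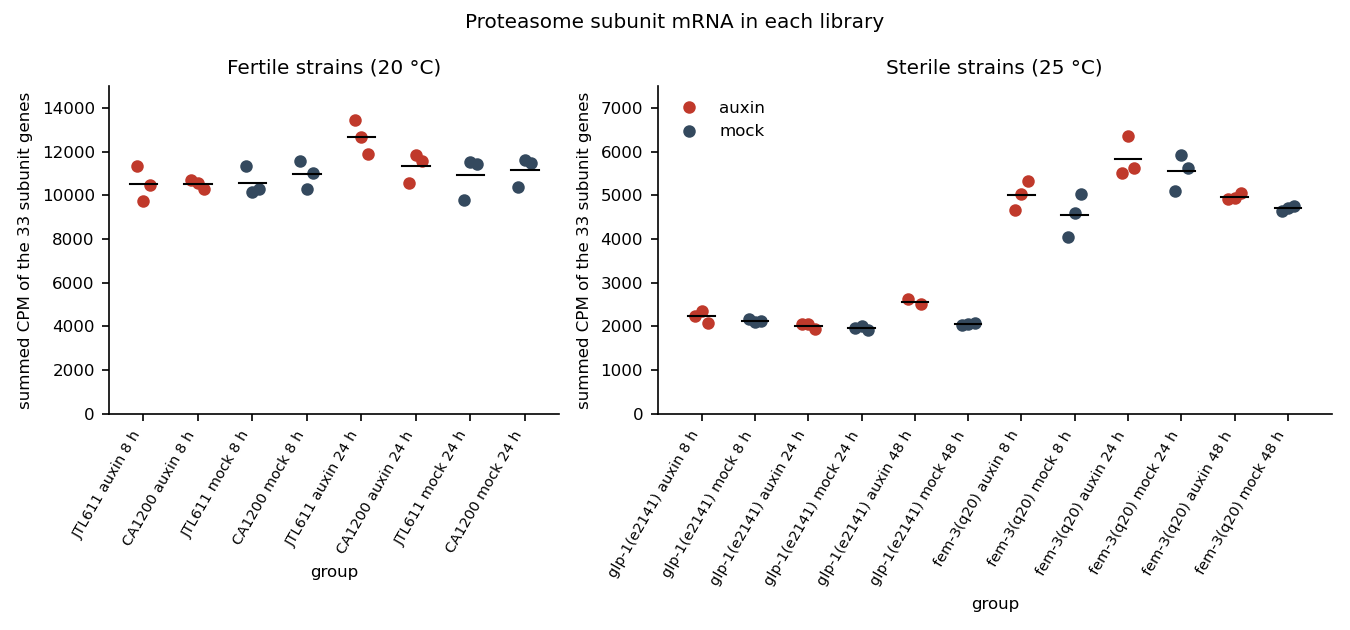
Summed CPM of the 33 subunit genes (vertical axis) in each library, grouped by strain, agent and hour, 1 point a library. The glp-1(e2141) libraries lie at 1906 to 2631 CPM and the fem-3(q20) libraries at 4035 to 6366 CPM. The JTL611 and CA1200 libraries come from tables normalised separately.

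The strains themselves differed far more than the agents. Summed over the 33 genes, glp-1(e2141) libraries held 1906 to 2631 CPM against 4035 to 6366 CPM in fem-3(q20), without overlap. In mock-treated animals limma called 32 of 33 genes lower in glp-1(e2141) than in fem-3(q20) at each of 8, 24 and 48 h, beside 36.9%, 41.9% and 40.8% of all genes called lower. The medians were -0.94, -1.44 and -1.13 log2, beside 0.02, -0.36 and -0.25 over all genes. At each hour the cap stood further down, with medians of -1.24, -1.67 and -1.30, beside -0.72, -1.28 and -0.93 for the core. The 6 ATPase genes had medians of -1.35, -1.72 and -1.34. At each hour every glp-1(e2141) mock library was below every fem-3(q20) mock library for 32 of 33 genes. The share of all genes apart in this way is not given here, so the gaps described below are not particular to the genes named.

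These calls depend on how libraries are scaled. The 2 strains differ in their tissues: 8 germline genes summed to 17.6 to 53.1 CPM in glp-1(e2141) against 1813 to 2849 CPM in fem-3(q20), 4 muscle genes to 1505 to 7300 against 419 to 2672 CPM, and 4 neuron genes to 250 to 428 against 125 to 221 CPM. Intestine genes summed to 53415 to 146479 against 36424 to 114379 CPM. When each library was centred on the median of its genes, which adds 0.80, 0.995 and 0.95 log2 to every gene and brings the median of all genes to 0.82, 0.64 and 0.70, the subunit medians were -0.14, -0.45 and -0.17, and 12, 22 and 13 genes were called lower with 4, 2 and 6 called higher. Of all 14269 tested genes, 10373, 10489 and 10383 were then called in either direction. The split of these totals by direction is not given here, so they are no background for the lower or higher counts. In the cap 11, 15 and 11 subunit genes were then called lower and in the core 1, 7 and 2. The 11 genes called lower at all 3 hours under either scaling were pas-7, rpn-1, rpn-2, rpn-3, rpn-6.2, rpn-8, rpn-10, rpt-1, rpt-2, rpt-5 and rpt-6. The share of all genes called lower at all 3 hours is not given here. The part of tissue composition in these values was not tested.

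Among the cap genes the base scaffolds showed large gaps. rpn-1 (WBGene00004458, chromosome IV, 6906420 to 6909913, minus strand) had 63.5, 65.1 and 52.3 CPM in glp-1(e2141) mock at 8 h against 182, 220 and 222 CPM in fem-3(q20) mock. At 24 h it had 29.1, 61 and 70.4 CPM against 231, 306 and 240 CPM. It fell by 1.79 log2 at 8 h, 2.36 at 24 h and 1.60 at 48 h, and its lowest library was again glp-1(e2141) mock replicate 1 at 24 h. rpn-2 (WBGene00004459, chromosome III, 6199184 to 6202594, plus strand) had 121, 117 and 124 CPM in glp-1(e2141) at 8 h against 356, 378 and 418 CPM in fem-3(q20), and at 48 h 134, 133 and 126 against 443, 464 and 434 CPM. These groups were tight and far apart, with a log2 fold change of -1.67 (SE 0.08, adjusted p = 9.4e-17 by limma) at 8 h and -1.77 at 48 h.

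rpn-10, which binds ubiquitin chains, had 42.5, 63.3 and 57.0 CPM in glp-1(e2141) mock at 24 h against 182, 223 and 196 CPM in fem-3(q20) mock, and fell by 1.46, 1.90 and 1.46 log2 at the 3 hours. The ATPase gene rpt-5 had 37.5, 44.8 and 44.3 CPM in glp-1(e2141) at 24 h against 132, 157 and 163 CPM in fem-3(q20). rpt-3, another base ATPase, had the lowest value of the ATPase genes at 24 h, -2.13 log2. For rpn-10 and rpt-5 no library overlapped between the strains.

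The ATPase genes did not all lie alike. At 48 h rpt-4 had 72.2, 81.1 and 92.7 CPM in glp-1(e2141) mock against 139, 124 and 138 CPM in fem-3(q20) mock, -0.71 log2, the smallest gap of the 6. rpt-1 had 71.8, 74.5 and 77.3 CPM against 199, 207 and 217 CPM, and rpt-6 had 97.6, 105 and 116 CPM against 297, 292 and 278 CPM, or -1.48 and -1.45. The lid gene rpn-8 had 70.3, 59.7 and 63.8 CPM in glp-1(e2141) against 185, 175 and 188 CPM in fem-3(q20), -1.50 log2. All 4 genes were apart in every library.

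Core genes were nearer to level. pbs-3 (WBGene00003949, chromosome II, 4954480 to 4955427, minus strand) had 77.9, 69.0 and 84.1 CPM in glp-1(e2141) mock at 8 h against 102, 98.4 and 107 CPM in fem-3(q20) mock, a log2 fold change of -0.42. pbs-5 had 57.0, 60.1 and 59.4 CPM at 48 h against 77.5, 81.4 and 80.6 CPM, or -0.44. In neither gene did a library overlap between the strains. pas-2 had 31.5, 31.1 and 39.8 CPM at 48 h against 52.6, 46.6 and 51.8 CPM, or -0.57. pbs-4 had 44.8, 44.2 and 54 CPM at 48 h against 73.7, 65.2 and 68.3 CPM, or -0.54. All 4 were apart in every library, and at these hours pbs-3, pbs-5, pas-2 and pbs-4 were called higher in glp-1(e2141), by 0.38, 0.51, 0.39 and 0.41, once libraries were centred on the median gene. The cap gene rpn-11 had the smallest called fall at 8 h, -0.27, and turned in the same way, to 0.53. Under centring the median of all genes was 0.82 at 8 h and 0.70 at 48 h.

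A measure that does not depend on library scaling is the gap between core and cap within a library. The median log2 CPM of the core genes minus that of the cap genes ran over -0.72 to -0.12 in the 17 glp-1(e2141) libraries, with a median of -0.46, against -1.27 to -0.89 in the 18 fem-3(q20) libraries, with a median of -1.06. The ranges did not overlap. In these CPM, then, cap mRNAs outweighed core mRNAs by more in fem-3(q20) than in glp-1(e2141), a description across libraries with no test.

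**Figure D4:**
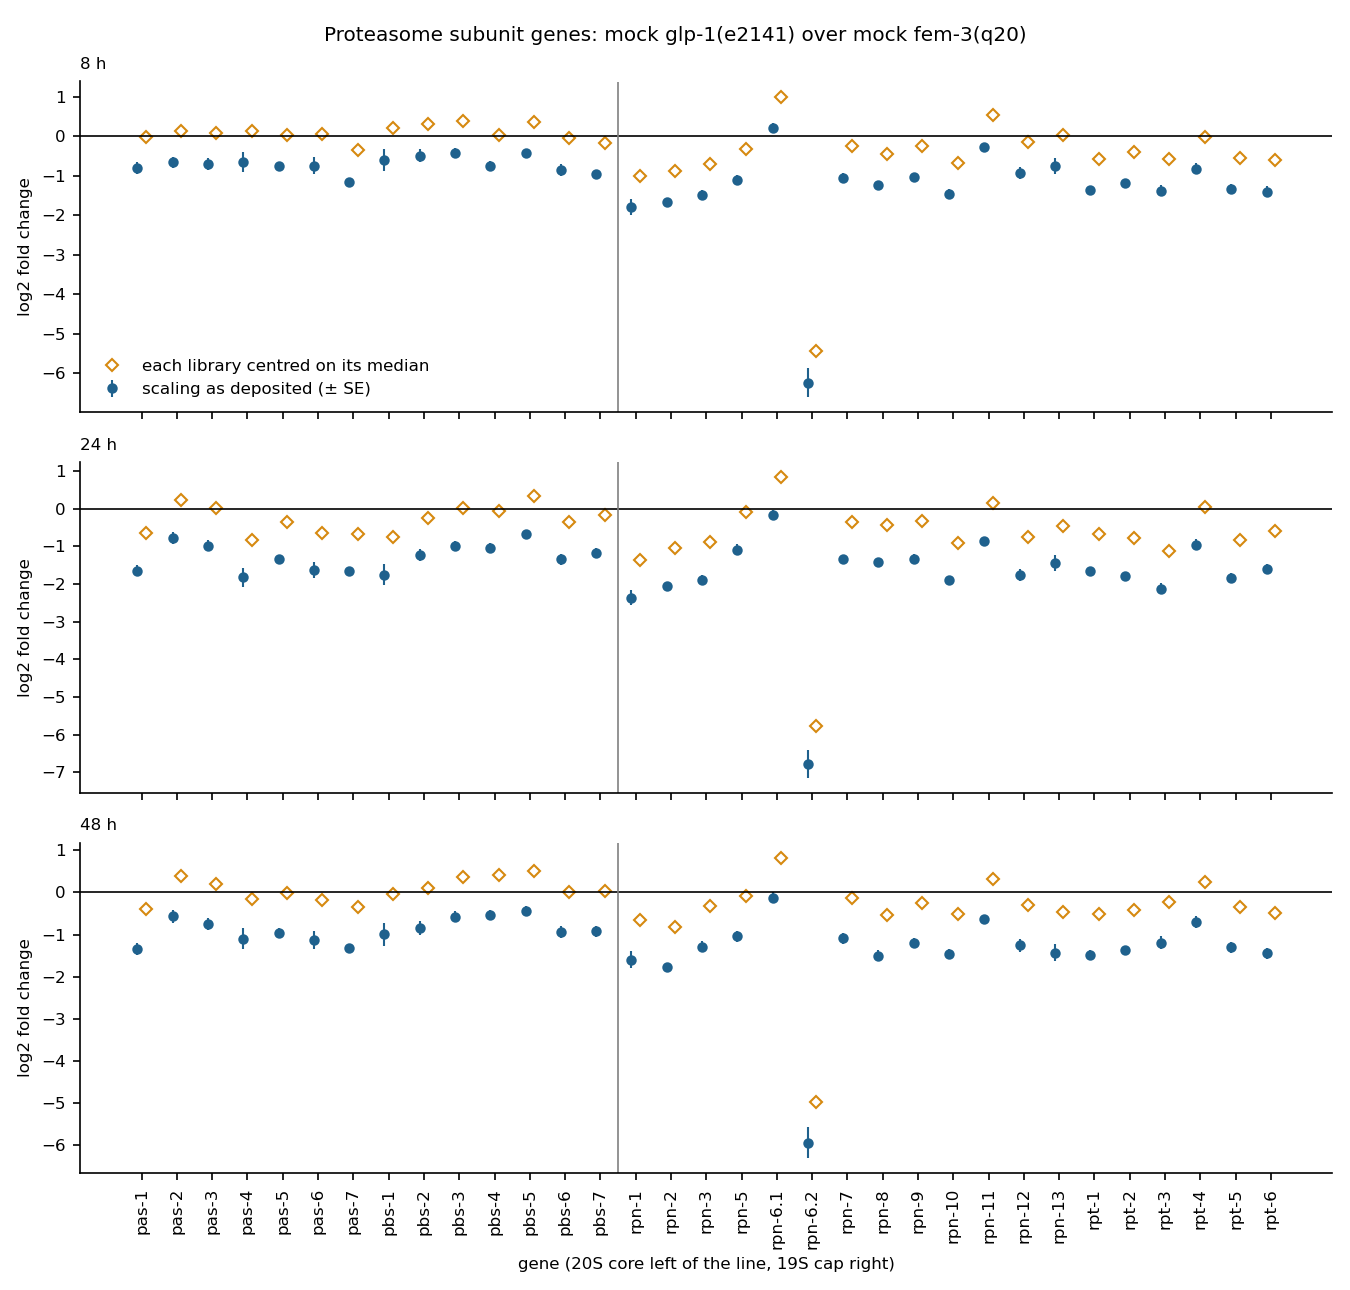
log2 fold change of each subunit gene in glp-1(e2141) mock over fem-3(q20) mock at 8, 24 and 48 h, with bars of 1 SE and diamonds for values after centring each library on its median gene. Before centring, rpn-6.1 at 8 h, at 0.21, is the only point above 0, rpn-6.2 is lowest at -6.23, -6.77 and -5.93, and the diamonds lie 0.80, 0.995 and 0.95 higher.

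The only gene not called lower at any of the 3 hours was rpn-6.1, and the one that differed most was its paralog rpn-6.2. RPN-6 is a lid subunit that ties the lid to the core and to the ATPase ring, and C. elegans has 2 genes for it. rpn-6.1 (WBGene00004462) lies on chromosome III at 6959110 to 6962001 and rpn-6.2 (WBGene00010309) on the same chromosome at 8999817 to 9001999, both on the minus strand.

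rpn-6.2 had 0.672, 2.01 and 2.07 CPM in glp-1(e2141) mock at 8 h against 97.8, 120 and 134 CPM in fem-3(q20) mock. At 24 h it had 1.22, 1.32 and 1.24 CPM against 139, 154 and 162 CPM, and at 48 h 2.42, 2.59 and 0.760 CPM against 105, 118 and 113 CPM. The groups were far apart at every hour, with log2 fold changes of -6.23 (SE 0.37, adjusted p = 7.5e-15), -6.77 (adjusted p = 8.9e-16) and -5.93 (adjusted p = 2e-14) by limma. The glp-1(e2141) libraries each held 8 to 50 reads of rpn-6.2, so the size of the fold there has wide counting error.

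rpn-6.1 had 37.1, 51.6 and 46.4 CPM in glp-1(e2141) mock at 8 h against 41.1, 41.1 and 33.8 CPM in fem-3(q20) mock. At 48 h it had 38.3, 32.2 and 44.2 CPM against 42.4, 42.9 and 39.2 CPM. The groups overlapped, with differences of 0.21 (95% interval -0.04 to 0.47), -0.15 (-0.41 to 0.10) and -0.13 (-0.39 to 0.13) at 8, 24 and 48 h and adjusted p of 0.13, 0.26 and 0.35 by limma. After median centring it was called higher in glp-1(e2141), by 1.01, 0.84 and 0.82, beside medians of 0.82, 0.64 and 0.70 over all genes. Within a library, rpn-6.1 lay at 0.404 to 0.717 of the median of the other cap genes in glp-1(e2141), with rpn-6.2 also left out of that median, against 0.166 to 0.270 in fem-3(q20), which does not turn on scaling.

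Of the CPM of both paralogs together, rpn-6.2 made up 1.69 to 7.45% in glp-1(e2141) libraries against 70.4 to 81.6% in fem-3(q20) libraries. In the fertile strains it made up 7.08 to 12.5% in JTL611 against 7.67 to 12.1% in CA1200, with 18.8 to 29.2 CPM in JTL611 against 21.7 to 30.3 CPM in CA1200. These ranges overlapped. In CA1200 and JTL611, where fewer sperm genes are listed, sperm sums had medians of 12.3 and 10.8 CPM. Germline sums had medians of 3547 and 3468 CPM there, and oogenic sums 9925 and 9137 CPM. The sperm, germline and oogenic marker sums all had the same order as rpn-6.2 between the sterile strains. The medians of the intestine, muscle, hypodermis and neuron sums were higher in glp-1(e2141). A link of rpn-6.2 to any of these cell types was not tested. How reads that match both paralogs were counted is not given in the sources used here, so the split between them carries that uncertainty.

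**Figure D5:**
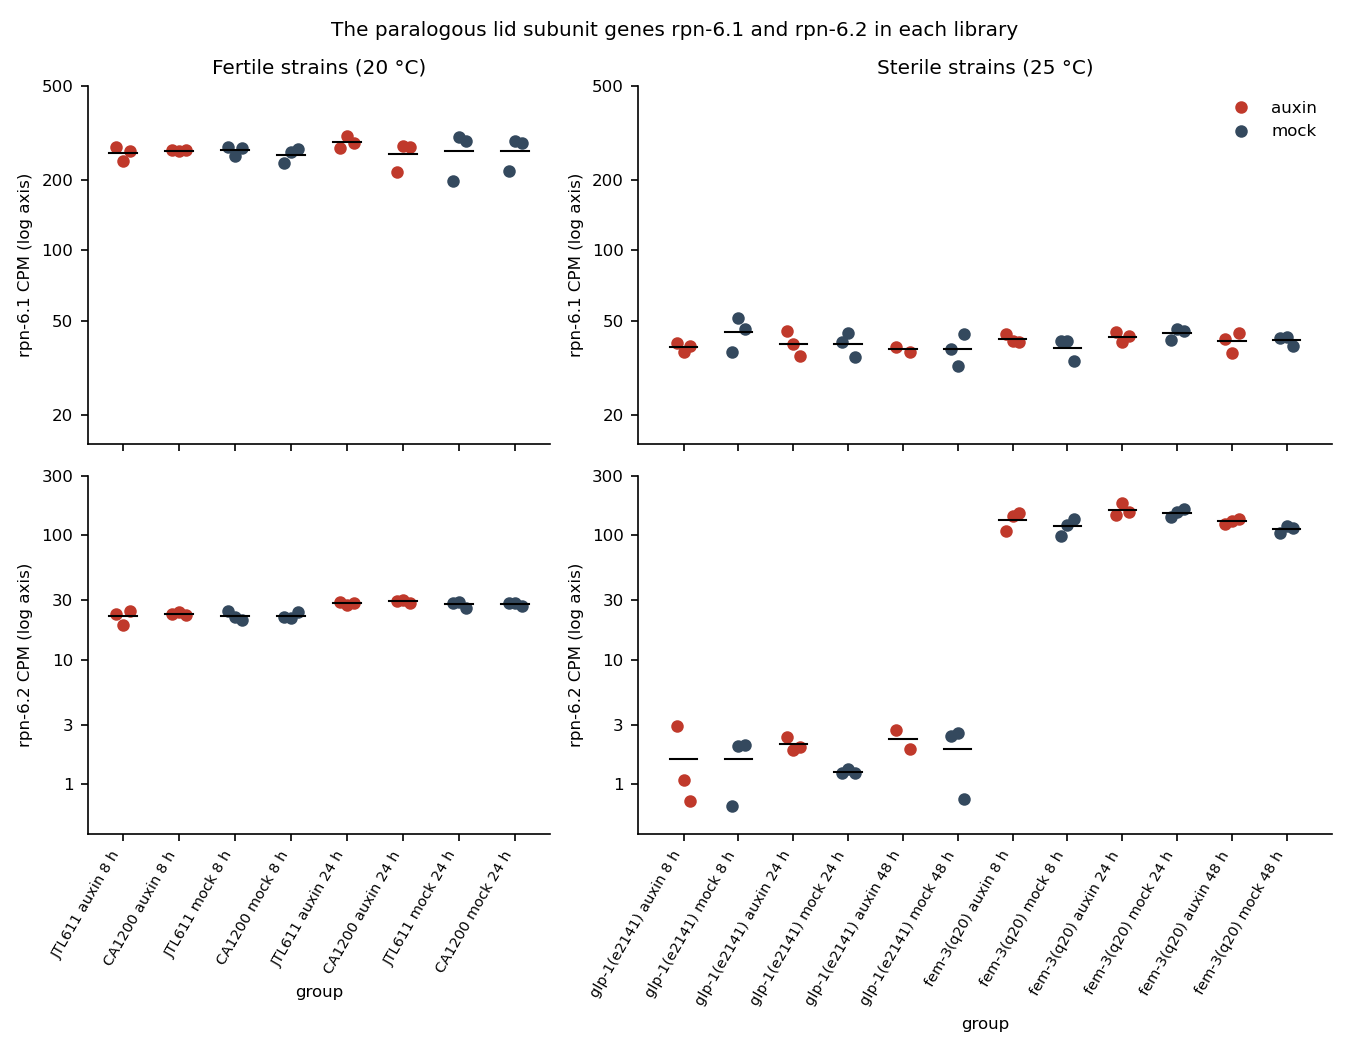
CPM of rpn-6.1 and of rpn-6.2 (log axes) in each library by strain. rpn-6.2 separates glp-1(e2141), at most at a share of 7.45% of the pair, from fem-3(q20), at 70.4% or more, whereas rpn-6.1 overlaps between these strains at 32.2 to 51.6 and 33.8 to 46.2 CPM.

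Time on the mock plates changed few subunit genes. In glp-1(e2141) at 48 h against 8 h limma called 2 of 33 lower, beside 12.7% of all genes, and none higher. The median was -0.10, beside -0.01 over all genes. Core genes were lower in the mean for 12 of 14, with a median of -0.26, beside 0.03 for the cap. pas-7 had 65.5, 61.5 and 75.6 CPM at 48 h against 88.6, 80.5 and 85.0 CPM at 8 h, a fall of every library, with -0.33 log2 (SE 0.09, adjusted p = 0.0085 by limma). pbs-3 had 51.8, 58.1 and 68.7 CPM at 48 h against 77.9, 69.0 and 84.1 CPM at 8 h, or -0.38 log2 (SE 0.13, adjusted p = 0.033 by limma), and replicate 3 at 48 h nearly met the lowest 8 h library. pas-4, with 25.1, 26.1 and 24.4 CPM at 48 h against 35.2, 32.4 and 35.6 CPM at 8 h, was apart in every library but not called (-0.45, adjusted p = 0.22 by limma). Neither pas-7 nor pbs-3 was called when only these 2 groups were fitted, which called pas-4 lower instead, nor under median centring, which called rpn-3 higher and none lower, nor under the second label field, which called rpn-3 and rpn-6.2 higher and none lower. The count was 0 with only the libraries whose labels agree, 0 without the 48 h replicate 2 and 4 without the 48 h replicate 3, of which rpn-3 was higher, and 1 without the 48 h replicate 1 or the 8 h replicate 3. The comparison shares its 48 h mock libraries with that of auxin at 48 h, in which pas-7 was called higher.

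In fem-3(q20) mock at 48 h against 8 h limma called 0 of 33, or 1 without the 8 h replicate 3, and voom weights 0, beside 17.4% of all genes. An unadjusted p under 0.05 was found for 2 of 33, beside 4072 of 14269 over all genes. The values of the 33 ran from -0.26 for pas-2 to 0.31 for rpn-13 with a median of 0.07, beside 0.16 over all genes.

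A list of 22 other genes of the ubiquitin-proteasome pathway was described in the same way. It holds regulators of subunit transcription, proteins that bind the proteasome, ubiquitin genes and shuttles, the CDC-48 segregase, conjugating enzymes and ER-associated degradation genes. No gene of it was called in any fertile comparison, nor for auxin in glp-1(e2141) at 8 or 24 h or in fem-3(q20). In glp-1(e2141) at 48 h of auxin 1 of 22 was called, usp-14, a deubiquitinase that docks on the cap, which rose by 0.41 log2 (SE 0.12, adjusted p = 0.040 by limma) at 42.5 and 49.7 CPM on auxin against 32.2 to 38.9 CPM in mock. ddi-1, the protease of the SKN-1A pathway, had 34.0 and 38.2 CPM on auxin against 20.7 to 30.4 CPM in mock, 0.48 log2 with an adjusted p of 0.068 by limma. The median of the list was 0.10, and 1 of 22 stands beside 2.92% of all genes called higher. usp-14 was not called under median centring.

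Between mock glp-1(e2141) and mock fem-3(q20), 15, 20 and 15 of the 22 were called lower at 8, 24 and 48 h, beside 36.9%, 41.9% and 40.8% of all genes, and 2, 1 and 1 higher, beside 31.6%, 31.1% and 29.7%. The medians of the list were -0.63, -0.98 and -0.72, beside 0.02, -0.36 and -0.25 over all genes. Their sign depends on scaling: after median centring they were 0.17, 0.02 and 0.23, beside 0.82, 0.64 and 0.70 over all genes. Of the 22, 7, 7 and 6 were then called lower and 9, 6 and 11 higher. Of all 14269 genes, 10373, 10489 and 10383 were called in either direction under centring, again without a split by direction. The largest falls at 48 h were ubh-4, a cap-bound deubiquitinase, at -1.90 before centring, cdc-48.2, 1 of a pair of segregase genes, at -1.68, and psme-3, a proteasome activator gene, at -1.53. These 3 were also called lower after centring. wdr-23, which encodes a repressor of SKN-1, was called higher at all 3 hours under either scaling, by 0.45, 0.94 and 0.86 before centring. In glp-1(e2141) mock at 48 h against 8 h, ubq-1, a polyubiquitin gene, ufd-1, a segregase cofactor, and sel-1, an ER-associated degradation gene, rose by 0.50, 0.54 and 0.55 log2, and ubq-2, which encodes ubiquitin fused to a ribosomal protein, fell by 0.69. These 3 higher and 1 lower of 22 stand beside 10.1% and 12.7% of all genes, and were 7 and 1 after median centring. Over all 14269 genes centring gave 3385 calls in either direction.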

How the data were processed

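The authors aligned paired-end reads to WBcel235 with STAR, counted them with featureCounts and deposited 3 tables of log2 CPM, made with edgeR after genes under 1 CPM in over 75% of samples were removed. The tables were for fertile animals at 8 h, fertile animals at 24 h and sterile animals. The authors' 24 h column of their own differential calls was not used. The constant added before the log2 step was taken off. Reads came out whole for 100% of the lower values of each library, the only ones checked (tolerance 0.1). Genes were tested where 25% or more of a table's libraries reached 1 CPM, which left 10739, 10245 and 14269 genes. Each table was fitted by itself with limma 3.58.1 (R 4.3.3; lmFit and eBayes with trend) on the deposited log2 CPM with group means over all its groups, and p-values were adjusted by Benjamini-Hochberg over all tested genes. Tests were therefore made within a table only. A call needed a mean of 2 CPM or more and an adjusted p under 0.05. Coordinates and exon lengths came from the WBcel235 annotation. Plots used matplotlib 3.10.9. The fit was tested on simulated data.

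Members, lists and comparisons were chosen with earlier results of these data known. By rule, values per library were given for members called where 5 or fewer were called or where the call ran against most members, for the 3 highest and 3 lowest fold changes of a comparison, and for paralogs; these were trimmed, and other named members were chosen, after their values were seen. Alternatives were a pseudocount of 1, no filter, no CPM limit, median centring, only the groups compared, the replicate number as a block, the second label field, libraries with agreeing labels, each library left out and, added after seeing the data, voom weights. Replicate numbers paired the samples (every pair correlated above 0.1) in both CA1200 comparisons of auxin with mock, in JTL611 auxin with CA1200 auxin at both hours, in JTL611 auxin with mock and JTL611 mock with CA1200 mock at 24 h, and in fem-3(q20) auxin with mock at 8 and 24 h. Promoter motifs were not analysed here.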

Additional observations from a re-analysis of the deposited data

How the results depend on the processing

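Counts of called subunit genes were 0 in every fertile comparison under every alternative. The main fit called no gene at all in JTL611 on auxin, against mock or against CA1200, so these counts cannot show that the subunit genes were unchanged. For auxin in glp-1(e2141) at 48 h the count of 3 became 0 with only the groups compared, 0 under the second label field, 2 with a pseudocount of 1, without the filter or under centring, 4 with voom weights, 0 with agreeing labels and 0 to 3 with 1 library left out (0 without auxin replicate 1). With the replicate block it was 5, although the 2 pairs of that comparison did not deviate together. Over all genes this comparison had 694 calls, 740 with the replicate block, 839 with voom weights, 69 with agreeing labels, 21 under the second label field and 16 with only the groups compared. Where replicate numbers paired the samples, the block changed no call of a subunit gene. Over all genes it gave 8 calls in place of 0 for JTL611 auxin against CA1200 auxin at 24 h. For auxin in glp-1(e2141) at 24 h leaving out a library gave 0 to 3 calls (1 without mock replicate 2, 3 without mock replicate 3). Under the second label field rpn-3 and rpt-2 reversed at 48 h, to -0.0088 and -0.023. For glp-1(e2141) against fem-3(q20), median centring gave 16 calls at 8 h, 24 at 24 h and 19 at 48 h, agreeing labels gave 19 at 8 h, and leaving out a library gave 28 to 31 at 8 h and 32 to 32 at 24 and 48 h. Over all genes centring gave 10373, 10489 and 10383 calls in place of 9769, 10417 and 10069. Under centring pbs-3 and rpn-11 reversed at 8 h to 0.38 and 0.53, pas-2, pbs-5 and rpn-6.1 at 24 h to 0.22, 0.33 and 0.84, and pbs-4, pbs-5 and rpn-6.1 at 48 h to 0.41, 0.51 and 0.82. For glp-1(e2141) mock at 48 h against 8 h the count of 2 lower became 1 lower with only the groups compared, 1 higher and 0 lower under centring, 2 higher and 0 lower under the second label field, 0 with agreeing labels and 0 to 4 with a library left out (0 without 48 h replicate 2, 1 without 48 h replicate 1 or 8 h replicate 3, 4 without 48 h replicate 3). The subunit medians for auxin in fem-3(q20) turned to -0.01, -0.0050 and -0.04 at 8, 24 and 48 h under the second label field, with 0 calls. Over all genes the 318 calls at 48 h became 0 under that field and 152 with agreeing labels. For auxin in glp-1(e2141) that field gave 4 calls over all genes in place of 61 at 8 h, and 7 in place of 94 at 24 h. Agreeing labels gave 5 at each of these hours. For fem-3(q20) mock at 48 h against 8 h the count of 0 became 1 with agreeing labels and 0 to 1 with a library left out (1 without 8 h replicate 3). The cause of these shifts was not tested.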
